A study of Mus musculus with 2 samples.

Results

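Class II low tumour macrophages were the 512 barcodes, of 17746 retained barcodes from 4T1 tumours, that carried the C1q genes of macrophages but little mRNA of the major histocompatibility complex (MHC) class II genes. They numbered 311 of 9313 retained barcodes in the AIE COF phototherapy library and 201 of 8433 in the PBS library. A barcode was a member when C1qa, C1qb and C1qc gave at least 5 UMIs (counted RNA molecules) and at least 0.1% of its UMIs, and when Cd74, H2-Aa, H2-Ab1 and H2-Eb1 together stayed under 0.5%. It also had no UMI of Cd3d, Cd3e or Cd3g, under 0.1% from the monocyte genes Ly6c2, Plac8, Ccr2 and Chil3, and fewer than 5 UMIs of the cell cycle genes Mki67, Top2a, Birc5 and Cenpf. The members were thus selected on measured UMIs of these 18 genes, whose levels are given as a description. Class II high macrophages, the nearest group, passed the same gates with at least 0.5% class II UMIs, and numbered 377 in the treated library and 414 in the PBS library.

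One library came from subcutaneous tumours of mice that received phototherapy with AIE COF, a material of covalent organic frameworks, and the other from tumours of mice given PBS. In both groups the tumour was 4T1, a transplantable mouse mammary carcinoma line, and tumours were taken on day 7 after phototherapy. The labels name the strain as C57BL/c, give no age or sex and do not say how many mice or tumours were pooled. Each group was 1 library, so no p-value was computed, and every interval below is a 95% interval that covers counting error only.

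Macrophages carry peptides from engulfed proteins to their surface on MHC class II, whose chains are encoded by the H2-A and H2-E genes and escorted by the invariant chain, the product of Cd74. The chaperone H2-DM then exchanges the invariant chain fragment for peptide. Transcription of all these genes depends on the coactivator CIITA, which docks on a shared promoter module of X and Y boxes bound by the RFX, CREB and NF-Y factors. In mouse tumours, macrophages with little class II are known for arginase and scavenger receptor expression, and those with much class II for antigen presentation and inflammatory cytokines.

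The promoters below are shown because H2-Aa and H2-Eb1, which the rule reads, share one arrangement of letters there with H2-DMb1 and H2-DMb2, which took no part in the choice. The promoters of H2-Ab1 and Cd74, also in the rule, were not analysed here. The printed letters are the RefSeq sequences (GRCm38.p6) of the 150 bases before the gene start on the strand of the gene, with start as position 1 and the base before it as position -1. Capitals mark TGACG or TGATG, the core of the X2 box, and ATTGG, the Y box, whose first letters lie 24 to 29 bases apart.
H2-Aa, chr17:34287824-34287973, minus strand, TGACG from -74 and ATTGG from -48: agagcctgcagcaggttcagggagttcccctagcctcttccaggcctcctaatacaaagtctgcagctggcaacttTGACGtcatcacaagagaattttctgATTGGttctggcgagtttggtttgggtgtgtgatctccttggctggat
H2-Eb1, chr17:34305717-34305866, plus strand, TGATG from -86 and ATTGG from -59: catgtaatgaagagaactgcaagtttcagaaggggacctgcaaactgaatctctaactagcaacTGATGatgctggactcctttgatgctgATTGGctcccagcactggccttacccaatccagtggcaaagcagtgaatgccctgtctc
H2-DMb1, chr17:34153041-34153190, plus strand, TGATG from -89 and ATTGG from -61: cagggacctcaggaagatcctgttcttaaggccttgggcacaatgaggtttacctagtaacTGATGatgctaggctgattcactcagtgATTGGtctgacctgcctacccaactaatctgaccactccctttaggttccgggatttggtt
H2-DMb2, chr17:34145099-34145248, plus strand, TGATG from -115 and ATTGG from -90: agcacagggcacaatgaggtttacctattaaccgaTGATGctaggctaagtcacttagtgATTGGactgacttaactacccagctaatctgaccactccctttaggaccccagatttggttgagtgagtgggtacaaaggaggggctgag
The pair stood in 4 of the 5 class II windows in the table, and H2-DMa had no such pair in its window. Over all 32851 RefSeq promoter windows, which run from 250 bases before to 50 after the start, 0.426% held the pair on the strand of the gene and 0.700% on either strand. ATTGG alone stood in 22.1% on the strand of the gene and 37.4% on either strand. In H2-Eb1 and H2-DMb1 a second TGATG overlaps the capitalised one. The RefSeq start of H2-DMb1 lies downstream of its GENCODE start, given further on, so most of its window falls inside the GENCODE gene. All printed positions of the H2-DMa window, chr17:34122682-34122831, lie inside its GENCODE gene, which starts at 34119541 on the plus strand. The bases before that GENCODE start were not searched for the pair. The spacing was set after these windows had been read, and a match of letters is no measurement of binding.

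The members carried further macrophage genes beside the C1q genes of the rule. The 5 genes that mark them, the C1qa, C1qb and C1qc of the rule with Pf4 and Ms4a7, summed to 9447 CPM (UMIs per 1000000 UMIs summed over the cells of a class) in treated members and 8629 CPM in PBS members, against 134 and 84.7 CPM in the other barcodes of the treated and PBS libraries. Here and below, the other barcodes are the 7954 treated and 7387 PBS barcodes left after the members, the class II high macrophages and the C1q macrophages with monocyte or cycle genes were set aside. The C1q part of that contrast was set by the rule. In class II high macrophages the same 5 genes summed to 8288 CPM in the treated and 10150 CPM in the PBS library. Their sum therefore did not set the members apart from that nearest group. Outside the rule, Pf4 gave 1234 CPM in treated and 680 CPM in PBS members, against 12.9 and 4.50 CPM in other barcodes. For Ms4a7, given below, the other barcodes had 33.8 and 20.4 CPM, and class II high macrophages 1624 and 1955 CPM. Of 10 further macrophage genes, the median treated member had a UMI of 7 and the median PBS member of 6. At least 3 were found in 95.8% of treated and 86.6% of PBS members, against 19.2% and 19.6% of the other barcodes. Class II high macrophages had a median of 7 in both libraries, and 96.8% of treated and 93% of PBS cells had at least 3. The complement gene C1qa, at chr4:136895917-136898803 (minus strand, mm10), stood at 1670 CPM in treated and 1625 CPM in PBS members, and Ms4a7, of the membrane-spanning family, at 1950 and 1767 CPM. Of 6 T cell markers the rule sets Cd3d, Cd3e and Cd3g to 0, and the other 3 summed to 7.11 and 6.54 CPM in treated and PBS members, and the 5 NK cell markers to 0.889 and 2.45 CPM. Other lineages were not all near 0. Neutrophil markers summed to 52.0 and 42.5 CPM, against 47.9 and 28.7 CPM in the other barcodes. B cell markers summed to 48.9 and 103 CPM, against 227 and 168 CPM. Plasmacytoid dendritic markers summed to 403 and 513.5 CPM, nearly all from 1 gene, against 211 and 260 CPM. Treated members held a median of 6842 UMIs and PBS members 4381, while class II high macrophages held 6976 and 6242. A gene with no UMI could lie at up to 1.33 CPM in treated and 2.45 CPM in PBS members. The largest PBS member held 64659 of the 1223036 PBS member UMIs, and the largest treated member 47413 of 2250439.

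RNA of tumour cells and fibroblasts was also present, and it differed between the libraries. The 6 markers of 4T1 cells summed to 154 CPM in treated and 375 CPM in PBS members, and 6 fibroblast markers to 330 and 1034 CPM, with the collagen gene Col3a1 and the matrix gene Dcn, decorin, at the top. Dcn gave 151 CPM in treated and 513 CPM in PBS members. In class II high macrophages the tumour sums were 84.7 and 88.7 CPM and the fibroblast sums 422 and 271 CPM. At least 3 such UMIs were found in 65 of 311 treated members (20.9%) and 48 of 201 PBS members (23.9%). Results that these cells move are given below with and without them, a choice made after seeing the data, and without them the markers of both lists summed to 114 CPM in treated and 137 CPM in PBS members. Those lower sums follow from the choice, since the same markers picked the cells left out. Both lists together summed to 483.9 CPM in treated and 1409 CPM in PBS members. Without barcodes marked as doublets, which may hold RNA of several cells, the sums were 215.7 and 326.7 CPM. Such marks fell on 9.97% of treated and 9.45% of PBS members, against 7.16% and 3.14% of class II high macrophages.

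**Figure D1:**
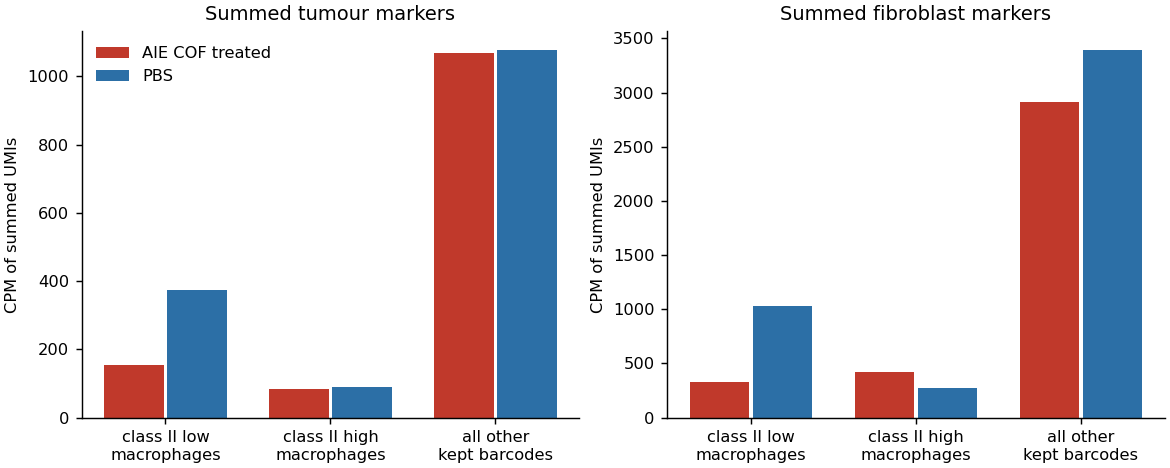
CPM summed over 6 tumour markers (left) and 6 fibroblast markers (right) in class II low macrophages, class II high macrophages and all other retained barcodes, with AIE COF bars left of PBS bars. In class II low macrophages both sums were lower in the treated library, at 154 against 375 CPM for tumour and 330 against 1034 CPM for fibroblast markers. Barcodes marked as doublets are included.

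Class II low macrophages made up a larger share of the treated library than of the PBS library. They were 3.34% (2.98 to 3.73) of retained treated barcodes and 2.38% (2.07 to 2.73) of retained PBS barcodes, a ratio of 1.40 (1.17 to 1.68). Class II high macrophages went the other way, with 4.05% of treated and 4.91% of PBS barcodes and a ratio of 0.825 (0.715 to 0.9504). Of the low and high macrophages together, 45.2% (41.4 to 49.0) were class II low after AIE COF and 32.7% (28.99 to 36.6) after PBS. Set over all C1q macrophages, cycling and monocyte gene cells included, the shares were 22.9% and 19.2% and the interval of their ratio, 1.19, ran from 0.994 to 1.43. The ratio over retained barcodes was 1.80 with a stricter C1q gate of 10 UMIs and 0.2%, and 1.84 among cells of at least 2000 UMIs. The stricter gate left 260 treated and 131 PBS members, and the minimum of 2000 UMIs left 273 and 156. Depth differed between the libraries both in the members, as given above, and in the other barcodes, with medians of 3057 UMIs in the treated and 6875 UMIs in the PBS library, and its part in these ratios was not tested. Cell shares cannot tell more members apart from fewer other cells.

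Within the members the class II share was spread over the whole range the rule allows. Its median was 0.1004% of UMIs in treated and 0.158% in PBS members, against 1.72% and 1.99% in class II high macrophages. No class II UMI at all was seen in 30 of 311 treated members (9.65%) and 21 of 201 PBS members (10.4%). There was no gap at the threshold: 33 treated cells lay between 0.4 and 0.5% and 36 between 0.5 and 0.6%, and 29 and 19 PBS cells did. Just inside the threshold Arg1 stood at 412.5 CPM in treated cells and just outside at 41.8 CPM, whereas PBS cells had 121 CPM inside and 215 CPM outside. Pf4 stood at 1025 and 843 CPM inside and outside in treated cells, and at 679 and 786 CPM in PBS cells. Cells with cycle genes, which the rule leaves out, were 39.7% of treated and 35.8% of PBS macrophages under the class II threshold, against 26.7% and 18.8% at or over it. These cycling cells were also deeper, with medians of 12999 UMIs in treated and 10944 UMIs in PBS cells under the threshold.

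**Figure D2:**
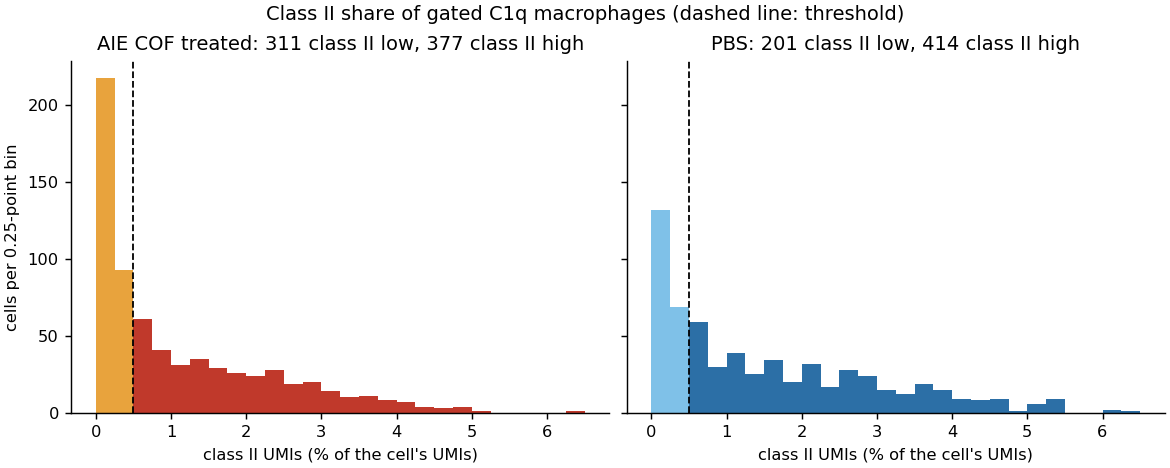
Number of macrophages in each bin of the class II share of a cell's UMIs, for the AIE COF and the PBS library, with the 0.5% threshold as a dashed line. Cells above the axis end are drawn in the last bin, and cells on both sides of the threshold show that it cuts a continuous range, with medians of 0.1004% in treated and 0.158% in PBS members.

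The class II genes themselves, which set the groups, were low across the board. Cd74 gave 645 CPM in treated and 768 CPM in PBS members, against 5498 and 7389 CPM in class II high macrophages. H2-Aa, the alpha chain of the A molecule, gave 358 and 340.1 CPM in members against 4812 and 4779 CPM. Genes of the same pathway that the rule did not read were low as well. H2-DMb1 (chr17:34153072-34160230, plus strand), the beta chain of the H2-DM chaperone, stood at 57.8 CPM in treated and 64.6 CPM in PBS members, against 230.4 and 240.3 CPM in class II high macrophages, a log2 difference of -1.996 (-2.28 to -1.72) and -1.90 (-2.25 to -1.56). H2-DMa, the alpha chain, gave 143 and 137 CPM in members against 285 and 325 CPM, or -0.99 and -1.24. Cd40, a costimulatory receptor, gave 16.4 and 22.1 CPM against 42.7 and 46.1 CPM, or -1.38 and -1.06. Of 8 measured accessory and costimulation genes, 4 were at least 1.5-fold lower in both libraries and 0 higher, with medians of -0.64 in treated and -1.01 in PBS cells. Across all 5078 genes compared, 58 (1.14%) were at least 1.5-fold lower and 81 (1.6%) at least 1.5-fold higher in both libraries, with medians of 0.07 and 0.04. Under median-of-ratios scaling, which sets the typical gene to no difference, 47 were higher and 79 lower. The class II threshold made these groups, so the contrast is a description and nothing is read from its counts.

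Inflammatory genes stood lower in class II low macrophages than in class II high ones. Il1b, the gene of interleukin-1 beta, gave 489 CPM in treated and 266 CPM in PBS members against 1467 and 909 CPM in class II high macrophages, a log2 difference of -1.58 (-1.68 to -1.49) and -1.77 (-1.95 to -1.61). Of 14 measured inflammatory genes, 12 lay below 0 in both libraries, and Il1b alone passed 1.5-fold in both, where 1.14% of all 5078 genes did. The share of all genes below 0 in both is not given here, so such counts are a description only. The inflammasome gene Nlrp3 came next, with 193 and 107 CPM in members against 286 and 188 CPM. Dnase1l3, a secreted nuclease, ranked first of the 12 genes named as lower, which leave out the genes of the rule, with 24 and 12.3 CPM in members against 139 and 125 CPM. The complement gene C3 gave 25.8 and 23.7 CPM against 68.4 and 63.2 CPM, and the lectin-like receptor gene Klrb1b 20.9 and 17.99 CPM against 65.5 and 78.1 CPM. Tmem176a, Tmem176b, Spon1, Nr4a3, Pmaip1 and St8sia4 completed the 12 genes ranked lowest by the smaller of both library differences, which lay between -1.12 and -0.89 for them. Immediate early genes had medians of -0.40 in treated and -0.38 in PBS cells, with 15 of 19 below 0 in both libraries and Nr4a1 past 1.5-fold. Cd274, which encodes the checkpoint ligand PD-L1, gave 85.3 and 79.3 CPM in members against 133.5 and 123 CPM.

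Arginase, platelet factor 4 and some genes of hypoxia stood higher in class II low than in class II high macrophages. Arg1 (chr10:24915221-24927484, minus strand), whose enzyme breaks down arginine, gave 210.2 CPM in treated and 170.1 CPM in PBS members against 76.5 and 73.5 CPM in class II high macrophages, a log2 difference of 1.46 (1.22 to 1.70) and 1.21 (0.93 to 1.495). The C1q macrophages with monocyte genes had more of it than the members, 254.7 CPM in treated and 286.6 CPM in PBS cells, and the other barcodes had 9.37 and 5.10 CPM. Pf4 (chr5:90772435-90773383, plus strand), a chemokine of resident-type macrophages and platelets, gave 1234 and 680.3 CPM in members against 469.6 and 414 CPM, or 1.39 (1.30 to 1.49) and 0.72 (0.59 to 0.85). Spp1, osteopontin, gave 818 and 656 CPM against 506 and 319.8 CPM, with more, 1350 and 1081 CPM, in the C1q macrophages with monocyte genes, and the chemokine gene Cxcl14 gave 54.2 and 76.0 CPM against 19.2 and 47.2 CPM. In the hypoxia and glycolysis list 14 of 17 measured genes lay above 0 in both libraries, with medians of 0.36 and 0.46. Beside 1.6% of all 5078 genes, 3 of this list passed 1.5-fold upward in both. Those were the glycolytic gene Pgk1 with 336 and 390.0 CPM against 219 and 244 CPM, the kinase gene Pdk1 with 40.9 and 60.5 CPM against 23.1 and 28.4 CPM, and the lactate exporter gene Slc16a3 with 44.4 and 57.2 CPM against 23.9 and 37.3 CPM. Pgk1 and Slc16a3 were higher still in the other barcodes, with 583.5 and 672 CPM and 81.6 and 98.0 CPM, and without the cells that held at least 3 tumour or fibroblast UMIs the smaller of both library differences was 0.52 for Pgk1, 1.05 for Pdk1 and 0.65 for Slc16a3. Slfn4, a Schlafen family gene, gave 52.9 and 85.0 CPM against 26.7 and 28.8 CPM, and it too was higher in the C1q macrophages with monocyte genes, at 148.6 and 147.9 CPM. The iron uptake receptor gene Tfrc gave 44.9 and 54.8 CPM against 26.0 and 30.5 CPM, but it stood at 166 and 170 CPM in the other barcodes.

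Several of the genes that ranked highest in class II low over class II high macrophages were more abundant still in the other barcodes. Sox9, a transcription factor of epithelial and cartilage cells, gave 88.4 CPM in treated and 89.9 CPM in PBS members against 27.4 and 33.01 CPM in class II high macrophages, and 205 and 214 CPM in the other barcodes. Hmga2, a chromatin protein gene on the tumour marker list, gave 55.5 and 156 CPM in members against 21.7 and 22.7 CPM, with 344 and 327 CPM elsewhere. A single PBS cell held 44.0% of its PBS member UMIs. Rhox5, a homeobox gene on the tumour marker list, gave 92.9 and 208.5 CPM in members, 50.9 and 53.9 CPM in class II high macrophages and 690 CPM elsewhere in both libraries. S100a4, Tafa1, Suclg2, Fam162a, Mtap and Nav1 also stood higher in the other barcodes than in the members of either library. Without the cells that held 3 tumour or fibroblast UMIs, the smaller of both library differences was 0.41 for Sox9, 0.31 for Rhox5 and -0.31 for Tafa1. Hmga2 then differed by -0.73 in treated and 0.23 in PBS cells, and 33 genes stood 1.5-fold higher and 33 lower in both libraries. UMIs of Rhox5 and Hmga2 helped choose the cells left out, so their values without those cells were shaped by that choice. The difference for Arg1 was 1.51 and for H2-DMb1 -1.73 without those cells.

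From the lowest to the highest bin of the class II share, Pf4 fell and Il1b rose, but not at every step. Treated cells had more Pf4 than PBS cells up to 2% and more Il1b in every bin. Pf4 in treated cells stood at 1481, 1128, 890.3, 783, 462, 306 and 43.0 CPM from the bin under 0.1% to the bin of at least 4%. PBS cells had 766, 842, 471, 679, 336, 401 and 113 CPM in the same bins. The highest bin held only 20 treated and 45 PBS cells, and its treated Pf4 value rests on 5 UMIs. In treated cells every bin was lower than the one before, whereas the PBS values were uneven and lay below the treated ones in every bin up to 2%. Il1b in treated cells stood at 301, 543, 770, 756, 1190, 2003 and 3483 CPM from low to high class II, and in PBS cells at 182, 384, 279.6, 278, 944, 955 and 1999 CPM. Treated cells had more Il1b than PBS cells in all 7 bins. Close to the threshold Il1b ran against the rise. It stood at 1033 CPM between 0.4 and 0.5% and 463 CPM between 0.5 and 0.6% in treated cells, and at 420 and 141 CPM in PBS cells. H2-DMb1 differed little between libraries, with 41.8 CPM in treated and 28.4 CPM in PBS cells of the lowest bin and 490.2 and 468 CPM in the highest. The mannose receptor gene Mrc1 stood at 226 CPM in treated and 97.3 CPM in PBS cells of the lowest bin, and at 105 and 106 CPM between 1 and 2%. Arg1 was uneven, and treated cells had 234 CPM under 0.1%, 82.6 CPM from 0.1 to 0.25% and 259 CPM from 0.25 to 0.5%.

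**Figure D3:**
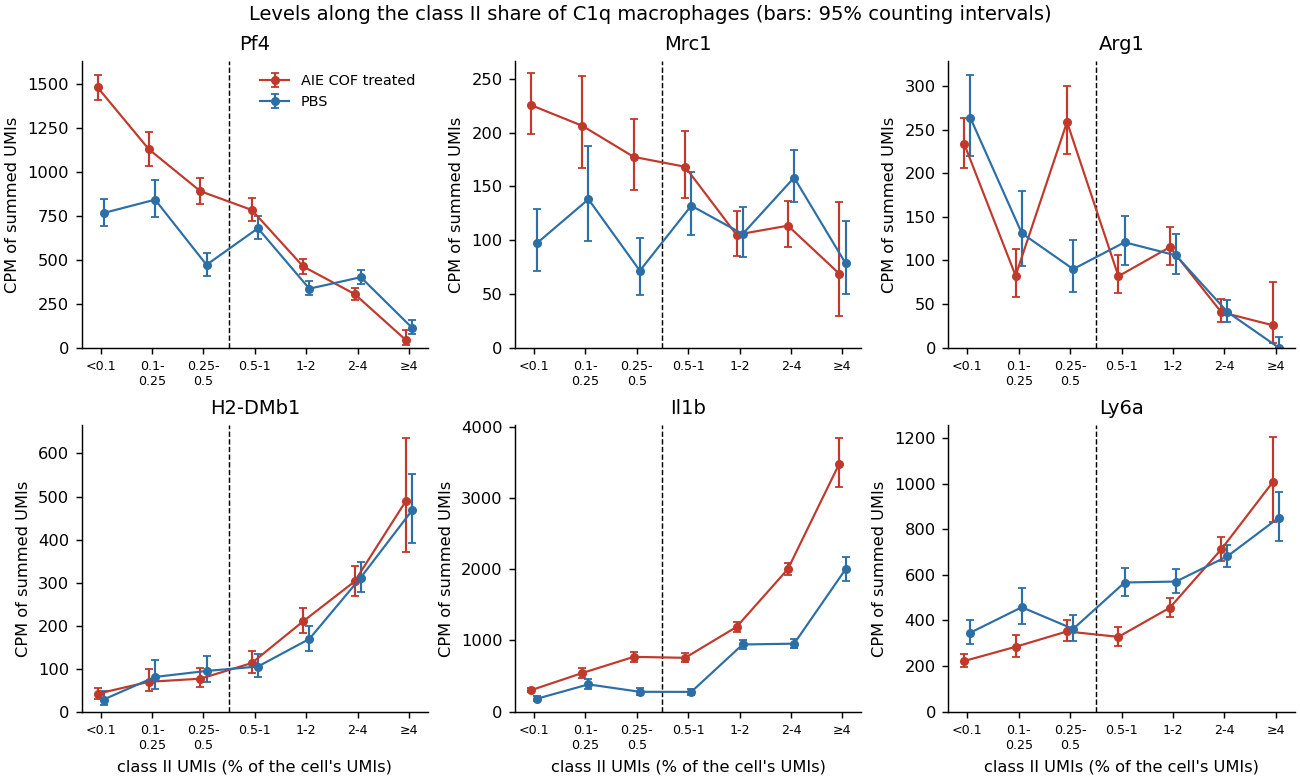
CPM of 6 genes in bins of the class II share of a cell's UMIs, for AIE COF and PBS macrophages that passed all other gates, with 95% counting intervals and the 0.5% threshold dashed. Pf4 stood at 1481 CPM in treated and 766 CPM in PBS cells of the lowest bin, and Il1b at 3483 and 1999 CPM in the highest. The highest bin held 20 treated and 45 PBS cells.

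Between the treated and the PBS library, class II low macrophages differed in Thbs1, in some inflammatory genes and in type I interferon genes. Of 4805 genes compared, 336 (6.99%) were at least 1.5-fold higher and 307 (6.39%) at least 1.5-fold lower in treated than in PBS members, with a median log2 difference of 0.03 and the 10th and 90th percentiles at -0.45 and 0.50. The share of all genes above or below 0 is not given, so such counts for the lists below are a description only. Among genes that passed the naming filters, given with the processing, Thbs1 (chr2:118111876-118127133, plus strand) had the largest ratio of treated over PBS. It encodes thrombospondin-1, a matrix protein that activates latent TGF-beta and restrains vessel growth. It gave 92.9 CPM in treated and 23.7 CPM in PBS members, a log2 difference of 1.97 (1.41 to 2.58). Class II high macrophages showed it too, with 110.4 and 31.9 CPM, the C1q macrophages with monocyte genes had 203.5 and 106.7 CPM, more than the members of either library, and the other barcodes had 15.3 and 6.16 CPM. Without the cells that held tumour or fibroblast UMIs its difference was 1.82. Next among the genes that passed these filters came Letm1, a gene of mitochondrial ion exchange, with 56.4 and 17.99 CPM. Csgalnact2, an enzyme of chondroitin sulfate synthesis, followed with 74.2 and 24.5 CPM. Plxnc1, a semaphorin receptor, gave 134 and 53.1 CPM, Emb, a partner of lactate transporters, 144 and 59.7 CPM, and Gfpt1, of the hexosamine pathway, 75.1 and 31.1 CPM. The polarity gene Mpp5, the sialic acid gene Cmas, the coenzyme A gene Pank3, the mediator gene Med6 and the zinc finger gene Zfp608 completed the 12, with log2 differences between 1.21 and 1.35, beside Ptgs2, which is described with the inflammatory genes.

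**Figure D4:**
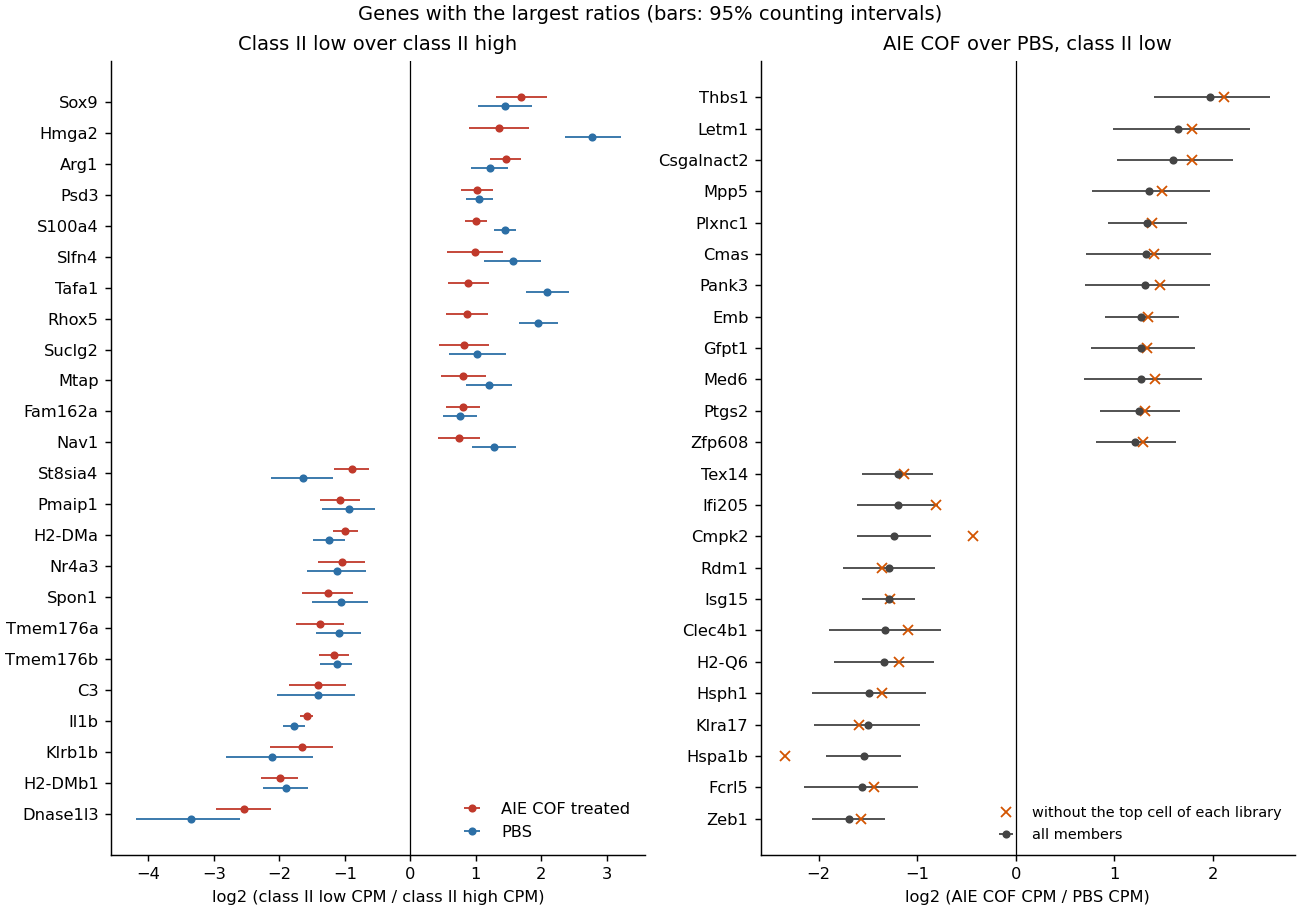
Log2 ratios of the genes with the largest differences among those that passed the naming filters. Left, class II low over class II high macrophages in each library, and right, AIE COF over PBS in class II low macrophages. Bars are 95% counting intervals, and crosses on the right give the ratio without the top cell of each library. Thbs1 stood at 1.97 and Isg15 at -1.29, while Cmpk2 moved to -0.43 and Hspa1b to -2.34 without their top cells.

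Other matrix genes were less evenly spread over cells. Of 15 measured matrix remodelling genes 3 were 1.5-fold higher and 2 lower in treated members, beside 6.99% and 6.39% of all 4805 genes. The elastase gene Mmp12 gave 88.9 CPM in treated and 27.8 CPM in PBS members, with 1 PBS cell holding 61.8% of the PBS UMIs, and its last 500 bases overlap Mmp1b. The collagenase gene Mmp13 gave 39.1 and 13.1 CPM, with 1 PBS cell holding 56.2%. Versican (Vcan), at 42.2 and 91.6 CPM, and fibronectin (Fn1, 254 and 421 CPM) were lower, but their differences were 0.079 and 0.24 without the cells that held tumour or fibroblast UMIs, and both stood higher in the other barcodes than in the members of either library.

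Some macrophage identity genes, Pf4 and Cd14 among them, were higher in treated than in PBS members. Of 16 measured, 13 lay above 0 and 3 passed 1.5-fold upward, against 0 downward, with a median of 0.24 in members and -0.06 in class II high macrophages. Among all 4805 genes, 6.99% passed upward and 6.39% downward. Pf4 gave 1234 CPM in treated and 680.3 CPM in PBS members, a log2 difference of 0.86 (0.75 to 0.97), which was 0.62 without the cells that held tumour or fibroblast UMIs. In class II high macrophages the same gene gave 469.6 CPM in treated and 414 CPM in PBS cells. The endotoxin coreceptor gene Cd14 gave 425 and 239.6 CPM, or 0.83 (0.64 to 1.02), and Csf1r, the growth factor receptor of macrophages, whose last 500 bases overlap Hmgxb3, gave 308 and 204 CPM, or 0.59. The median over the list was 0.09 without the cells that held tumour or fibroblast UMIs, and Cd14 then stood at 0.42 and Csf1r at 0.38. Mrc1, of the alternative activation list, gave 207.5 and 98.1 CPM in treated and PBS members, or 1.08 (0.79 to 1.38), against 122.5 and 129 CPM in class II high macrophages. The interleukin-4 receptor gene Il4ra gave 53.3 and 34.3 CPM, and Arg1, with 210.2 and 170.1 CPM, did not reach 1.5-fold.

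Some inflammatory genes, Il1b and Nlrp3 among them, were higher in treated members. Of 13 measured, 8 lay above 0 and 5 below it, and 5 passed 1.5-fold upward and 1 downward, with a median of 0.28 in members and 0.17 in class II high macrophages. The shares over all 4805 genes were 6.99% upward and 6.39% downward. Ptgs2 (chr1:150100031-150108227, plus strand), the inducible cyclooxygenase that starts prostaglandin synthesis, gave 125 CPM in treated and 52.3 CPM in PBS members, or 1.25 (0.86 to 1.67), with 23.8% and 26.6% of those UMIs in 1 cell of each library. Class II high macrophages had 135 and 138 CPM of Ptgs2. Il1b gave 489 and 266 CPM in members, or 0.88 (0.70 to 1.06), and 1467 and 909 CPM in class II high macrophages, while the other barcodes had 98.1 and 41.4 CPM. Nlrp3 gave 193 and 107 CPM, or 0.85 (0.57 to 1.15), and the receptor gene Ccrl2 99.98 and 60.5 CPM. Ccl3 stood apart in this list, at 370 CPM in treated and 606 CPM in PBS members, or -0.71 (-0.86 to -0.57), and at 537 and 834 CPM in class II high macrophages. Among genes of cAMP and eicosanoids, the phosphodiesterase gene Pde4b gave 282 and 139.8 CPM, or 1.01 (0.76 to 1.26), and the prostaglandin receptor gene Ptger4 49.8 and 82.6 CPM. Entpd1, which encodes the ATP-degrading CD39, gave 175 and 95.7 CPM, or 0.87 (0.57 to 1.18). Fcgr2b, the inhibitory Fc receptor, gave 677 and 404 CPM, or 0.75 (0.60 to 0.89), and Abca1, the cholesterol exporter, 507 and 289 CPM, or 0.81 (0.64 to 0.98). Over 12 alternative settings the lowest difference was 0.39 for Il1b, 0.53 for Ptgs2, 0.41 for Ccrl2, 0.572 for Fcgr2b and 0.583 for Abca1, all under 1.5-fold. For Nlrp3 it was 0.67, for Pde4b 0.73 and for Entpd1 0.70, still past 1.5-fold.

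The costimulatory genes Cd86 and Cd83 were higher in treated members. Of 7 measured accessory and costimulation genes 6 lay above 0 and these 2 passed 1.5-fold, while Cd40, with too few UMIs to be compared, gave 16.4 CPM in treated and 22.1 CPM in PBS members. Cd86 gave 328 CPM in treated and 194 CPM in PBS members, or 0.76 (0.55 to 0.98), against 478 and 457 CPM in class II high macrophages. Cd83, which stabilises surface class II, gave 166 and 109.6 CPM, or 0.60 (0.31 to 0.90). Over 12 alternative settings the lowest difference was 0.47 for Cd86 and 0.43 for Cd83, both under 1.5-fold. The protease gene Lgmn and the reductase gene Ifi30, whose products prepare antigen, lay at 0.51 and 0.32, below 1.5-fold, and of 18 lysosome genes 0 passed it in either direction, with a median of 0.13. Among all 4805 genes, 6.99% passed 1.5-fold upward and 6.39% downward.

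Type I interferon genes were lower in treated members. Of 18 measured, 17 lay below 0 and 8 passed 1.5-fold downward, against 0 upward, with a median of -0.50 in members and -0.31 in class II high macrophages. Among all 4805 genes, 6.39% passed downward and 6.99% upward. Isg15 (chr4:156199424-156200818, minus strand), a ubiquitin-like protein attached to targets during the antiviral response, gave 90.2 CPM in treated and 219.9 CPM in PBS members, or -1.29 (-1.56 to -1.02). The same gene gave 108 and 169 CPM in class II high macrophages and 44.1 and 69.6 CPM in the other barcodes. Ifi205 and Ifi209, of the DNA sensor family, gave 41.3 and 94.8 CPM and 121 and 235 CPM in treated and PBS members. Cmpk2, a mitochondrial nucleotide kinase, gave 48.0 and 113 CPM, but 1 PBS cell held 48.5% of its PBS UMIs, and the difference was -0.43 without the top cell of each library. Without the cells that held tumour or fibroblast UMIs the list median was -0.70 and Isg15 stood at -1.43.

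Some interferon gamma and class I genes were lower as well. Of 13 interferon gamma genes 4 passed 1.5-fold downward and 0 upward, with a median of -0.31 in members and -0.03 in class II high macrophages. The GTPase gene Iigp1 gave 82.2 CPM in treated and 172 CPM in PBS members, the T cell attractant gene Cxcl9 153 and 248 CPM, and Gbp3 47.1 and 73.6 CPM. Gbp2 gave 143 and 226 CPM, with 44.2% of its PBS UMIs in 1 cell, and its difference was 0.14 without the top cells. Of 12 class I presentation genes 5 passed 1.5-fold downward and 0 upward, with a median of -0.39 in members and -0.01 in class II high macrophages. Beside both lists, 6.39% of all 4805 genes passed downward and 6.99% upward. Nlrc5, the coactivator of class I genes, gave 47.6 and 106 CPM, or -1.16 (-1.54 to -0.78), and held -1.16 without the cells that carried tumour or fibroblast UMIs. H2-Q6, H2-Q7 and H2-Q4, nonclassical class I genes whose near-identical sequences may share reads, gave 26.2 and 66.2 CPM, 122 and 245 CPM, and 22.2 and 44.2 CPM. Without the cells that held tumour or fibroblast UMIs the medians were -0.14 for the class I list and -0.19 for the interferon gamma list, with H2-Q7 at -0.37 and Cxcl9 at -0.28.

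**Figure D5:**
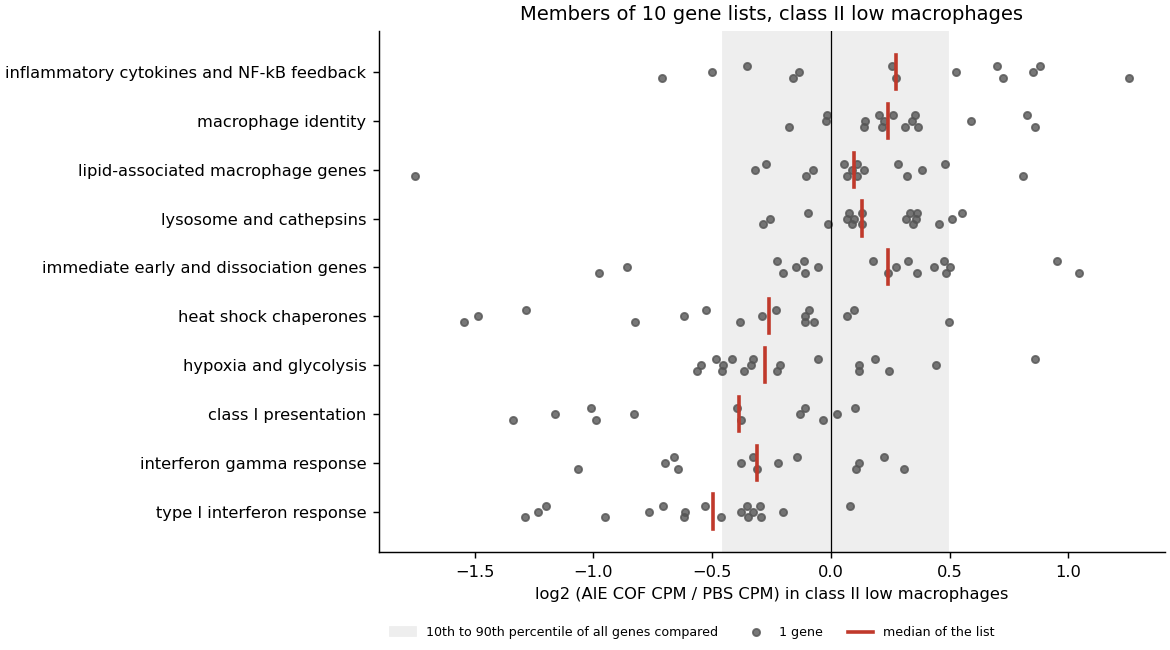
Log2 ratio of AIE COF over PBS in class II low macrophages for each measured gene of 10 lists, with the list median in red and the range from the 10th to the 90th percentile of all 4805 genes shaded. Among the 10 lists drawn the type I interferon genes have the lowest median, -0.50, and the inflammatory genes the highest, 0.28, while lists not drawn reached 0.47, in the 4 measured genes of alternative activation and the 8 of cAMP and eicosanoids.

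Chemokines showed no common direction, with 1 of 12 at least 1.5-fold higher and 3 lower in treated members. Ccl5, which draws T cells, gave 348 CPM in treated and 702 CPM in PBS members, or -1.01 (-1.16 to -0.87), and 709 and 939.9 CPM in class II high macrophages. In treated members 1 cell held 24.3% of its UMIs, and the difference was -1.17 without the top cells. Transcription factor genes were split, with 4 of 19 higher and 2 lower. Beside both lists, 6.99% of all 4805 genes were higher and 6.39% lower. The orphan receptor gene Nr4a1 gave 82.7 and 40.1 CPM, or 1.04 (0.58 to 1.53), and Runx3 88.4 and 54.8 CPM. Pparg, the lipid sensor, gave 24 and 51.5 CPM, or -1.10 (-1.65 to -0.55), and Mitf, of the lysosomal factor family, 59.1 and 104 CPM.

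Stress genes divided as well. Of 16 heat shock chaperones 5 passed 1.5-fold downward and 0 upward, beside 6.39% and 6.99% of all 4805 genes, with a list median of -0.26. Hspa1b and Hspa1a, near-identical genes of inducible Hsp70, gave 42.7 and 124 CPM and 48.9 and 86.7 CPM in treated and PBS members, and 12.5 and 92.3 CPM and 48.8 and 104 CPM in class II high macrophages. Hsph1, of the Hsp110 family, gave 19.6 and 54.8 CPM, or -1.49 (-2.07 to -0.92), while Serpinh1, a collagen chaperone, gave 34.2 and 83.4 CPM and stood at 275 and 313 CPM in the other barcodes. The list median was -0.05 without the cells that held tumour or fibroblast UMIs. Among immediate early genes Nr4a1 and Nr4a2 were higher (Nr4a2 at 82.2 and 42.5 CPM) and Egr1 and Jun lower, with 168 and 331 CPM and 364 and 661 CPM. These genes also respond to tissue dissociation, and their part in other differences was not tested.

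Few genes of the metabolic lists passed 1.5-fold between treated and PBS members. Their counts below 0 have no share over all genes beside them and are a description only. Of 18 hypoxia and glycolysis genes 12 lay below 0, with a median of -0.28, and 1 passed 1.5-fold, upward, the lipid droplet gene Hilpda, with 74.2 CPM in treated and 40.9 CPM in PBS members. Of 10 cholesterol genes 9 lay below 0, with a median of -0.34, and 2 passed 1.5-fold downward, among them the synthesis gene Sqle, with 27.1 CPM in treated and 46.6 CPM in PBS members. Of 19 respiratory chain genes 14 lay below 0 and 0 passed 1.5-fold, with a median of -0.11. Among all 4805 genes, 6.99% passed 1.5-fold upward and 6.39% downward. Fabp4, a fatty acid carrier, gave 28.9 and 97.3 CPM, but single cells held 23.1% of the treated and 30.3% of the PBS UMIs, and the other barcodes had 171 and 107 CPM.

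The remaining genes of the 12 named as lowest in treated over PBS members, by the same filters, came from several families. Zeb1, a repressor known from epithelial to mesenchymal transition, gave 44.0 CPM in treated and 142 CPM in PBS members, with 267 and 274 CPM in the other barcodes, and its difference of -1.69 was -0.75 without the cells that held tumour or fibroblast UMIs. The receptor genes Fcrl5 (19.1 and 56.4 CPM), Klra17 (22.2 and 63.0 CPM) and Clec4b1 (20.9 and 52.3 CPM) were scarce in the other barcodes, at no more than 1.07 CPM. All 3 were lower in treated class II high macrophages too, with 3.56 and 27.0 CPM for Fcrl5, 18.5 and 66.4 CPM for Klra17 and 15.3 and 58.9 CPM for Clec4b1. Rdm1 and Tex14, known from DNA repair and germ cells, gave 31.5 and 76.9 CPM and 52.0 and 119 CPM.

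The genes that varied most between members included 5 chemokine genes, but also the nuclear RNA Malat1 and the actin gene Actb. After each cell was thinned to 1000 UMIs, which left 302 of 311 treated and 190 of 201 PBS members, the 10 genes with the highest variance over mean in both libraries were Malat1, Spp1, Actb, Zc3h7a, Ccl5, Ccl8, Ccl12, Apoe, Ccl4 and Cxcl2. Spp1 reached 18.8 in treated and 23.9 in PBS members. A UMI of it turned up in 18.2% of treated members and 17.4% of PBS members, with up to 50 UMIs in a treated and 42 in a PBS cell. Apoe, the lipid carrier, was found in 94.4% and 90.5%. Pf4 had a UMI in 46.0% (40.3 to 51.8) of treated and 23.7% (17.8 to 30.4) of PBS members, in 23.7% and 17.5% of class II high macrophages, and in 1.08% and 0.776% of the other barcodes. Without thinning, 70.1% of treated and 44.3% of PBS members had it. Il1b had one in 21.2% of treated members and 13.2% of PBS members, Mrc1 in 17.5% and 11.1%, Arg1 in 13.2% and 9.47%, Isg15 in 13.2% and 17.9%, and Thbs1 in 6.29% and 2.63%.

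Arg1 and Pf4 often stood in the same cells, and Pf4 and Il1b less often. At 1000 UMIs, 72.5% of the 40 treated members with Arg1 had Pf4, against 42.0% of the 262 without, and 61.1% of 18 against 19.8% of 172 in PBS members. Spp1 stood in 37.5% of treated members with Arg1 against 15.3% of those without, and in 38.9% against 15.1% of PBS members. Il1b stood in 14.4% of treated members with Pf4 against 27.0% of those without, and in 6.67% against 15.2% of PBS members. Cells of 1 library are no replicates, and these shares were not tested.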

How the data were processed

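The authors deposited raw UMI counts, as whole numbers for 32285 genes in each barcode of 1 AIE COF phototherapy and 1 PBS library. Libraries were made with the MobiCube 3' kit, per the labels' protocols; STAR and mm10 are named per the submitters' processing notes, while neither states versions, a counting program or the use of strand. The libraries held 115576457 treated and 145045294 PBS UMIs in 10002 and 8962 barcodes, the smallest with 500 UMIs. Retained barcodes had at least 200 genes and no more than 20% mitochondrial UMIs; 39 barcodes occurred in both libraries, 1 treated and 1 PBS member among them, and 0 as members in both. Doublets were kept in the members; Scrublet in Scanpy 1.11.5 marked 31 treated and 19 PBS members.

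UMIs were summed per class and library and given as CPM, and ratios were taken from these sums with nothing added to counts. A floor of 3 UMIs set the level up to which a gene with no UMI could lie. Genes needed 100 UMIs over the cells compared, in each library for class II low over high. Intervals are 95% exact: Clopper-Pearson for shares and conditional binomial for ratios, computed with SciPy 1.17.1, NumPy 2.4.6 and Python 3.11.15, and checked on simulated counts. A gene counted as higher or lower at 1.5-fold.

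Members, lists and rules were chosen with earlier results of these data known. Named genes were, in each direction, the 12 largest ratios among genes with 50 CPM and a UMI in 10% of cells of the higher group. For treated over PBS the level in other barcodes was at most 2 times that in members; for class II low over high the smaller of both library ratios ranked the genes. Genes of the rule, mitochondrial, ribosomal, haemoglobin, immunoglobulin, Gm and Rik genes were left out. From each list described, up to 4 members with the largest ratios were named. Levels along the class II share are of genes chosen after their values were seen. Gene positions and overlaps within the last 500 bases are from GENCODE M21, which held 32158 of the gene IDs; reads of overlapping or near-identical genes could not be told apart. Alternatives covered the gates, doublets, thinning, scaling (TMM from edgeR 4.0.16 in R 4.3.3), gene minimum and fold. The values of 1 listed gene are not reported here.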

Additional observations from a re-analysis of the deposited data

Results flagged for a closer look

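Lpl, which encodes lipoprotein lipase, a lipid-handling enzyme, differed between class II low and class II high macrophages in opposite directions in the libraries. It stood at 70.2 CPM in class II low and 115 CPM in class II high macrophages of the treated library, a log2 difference of -0.71. In the PBS library it stood at 87.5 CPM in class II low and 50.05 CPM in class II high macrophages, a log2 difference of 0.81. With 1 library for each treatment, the difference between the libraries was not tested.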

How the results depend on the processing

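The treated over PBS ratio of the members' share among low and high macrophages stayed between 1.27 and 1.63 under every gate tried. The ratio over retained barcodes was 1.80 with a C1q gate of 10 UMIs and 0.2% and 1.84 among cells of at least 2000 UMIs. Genes 1.5-fold higher in class II low over high macrophages in both libraries (81) numbered 42 with the class II threshold at 0.25%, 122 at 1%, 40 with the stricter C1q gate, 36 without marked doublets, 47 with median-of-ratios and 48 with TMM scaling, and 33 without cells holding 3 tumour or fibroblast UMIs, where 33 were lower (58). Counts also moved with thinning, the gene minimum and the fold: for treated over PBS, 59 genes were higher and 32 lower after thinning, 550 and 677 with a minimum of 50 UMIs, 73 and 59 with 400 UMIs, and 53 and 80 at 2-fold; for class II low over high, the counts were 7 and 11, 182 and 91, 14 and 16, and 8 and 13. The thinned sums held 789 and 908 genes, so fewer could be called. Leaving out cells with tumour or fibroblast UMIs, cells under 2000 UMIs or the top cell of a gene was chosen after seeing the data. Directions turned for Cmpk2 (0.56) and Rsad2 (0.45) at the 0.25% threshold, and for Gbp2 with the stricter C1q gate (0.15), without doublets (0.14), with equal weight for cells (0.27), without the top cells (0.14) and without cells holding tumour or fibroblast UMIs (0.035). Fn1 turned without doublets (0.23), after thinning (0.23) and without those cells (0.24), and Vcan after thinning (0.00952) and without those cells (0.079). After thinning Gfpt1 stood at -0.13, Osm at -0.47 and, for class II low over high, Vcan at -0.61; without those cells Tafa1 stood at -0.31 and Vcan at -0.054. The medians of class I and heat shock genes turned to 0.19 and 0.18 after thinning, over 2 and 7 measured genes, and immediate early genes to -0.20 over 12. The cause was not tested. No paired analysis was possible because each group is 1 library. Depth limits the rarer genes: a member's gene with no UMI could lie at up to 1.33 CPM in the treated and 2.45 CPM in the PBS library.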
